A study of Homo sapiens with 8 samples.

Results

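The nuclear lamina and inner nuclear membrane were followed through the mRNAs of 10 genes: the lamins LMNA, LMNB1 and LMNB2, the lamin-processing protease ZMPSTE24, the membrane and chromatin tethers LBR, EMD, TMPO and BANF1, and the SUN-domain proteins SUN1 and SUN2. These genes were listed by name and are 10 of the 58302 genes in the count table, and all 10 were among the 14133 genes with enough reads to be tested. RNA sequencing of the human colorectal cancer line DLD1 compared cells with stable overexpression of wild-type TRMT6 and TRMT61A (OE-WT) with cells that carried the empty lentiviral vector (CTRL), with 2 libraries in each group. TRMT6 and TRMT61A form the enzyme that places the m1A mark on cytosolic tRNAs, and the study asked whether raising it drove tumor cells into senescence. The duplicates are labelled as replicates, and the paper calls its RNA sequencing replicates biological. Whether they came from separate cultures or separate transductions is not stated, so the p-values measure the spread between these libraries only. Cells with the catalytically inactive enzyme, which would tell the methyltransferase activity from the added protein, were not analysed here.

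The nuclear lamina is a mesh of lamin filaments under the inner nuclear membrane. A-type lamins come from LMNA and B-type lamins from LMNB1 and LMNB2, and integral membrane proteins of the LEM family tether chromatin to the mesh through BANF1, while SUN proteins span the inner membrane and join the lamina to the cytoskeleton. Loss of LMNB1 is a common mark of senescent cells, and faulty processing of prelamin A by ZMPSTE24 underlies premature aging syndromes.

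The libraries held 10327498 to 12379671 counts on genes. The overexpressed genes followed the labels in every library. TRMT6 stood at 210.7 and 180.9 CPM (read counts scaled to a common library size by the trimmed mean of M-values, TMM) in OE-WT against 52.6 and 55.4 in CTRL, and TRMT61A at 137.5 and 130.4 against 58.9 and 56.8. The 8 colon epithelial markers summed to 10250 to 11871 CPM, most of it from KRT8 and KRT18. KRT8 and KRT18 were called higher in OE-WT (log2 0.25 and 0.30), though neither with library size only nor without OE-WT library 2, and CDH1, CDH17 and KRT20 lower (log2 -0.29, -0.45 and -1.52), KRT8 being named after its value was seen. The part of these marker changes in the results was not tested. The 8 markers of immune, endothelial and stromal cells summed to 1.55 to 2.82 CPM, and 4 of them, COL3A1, DCN, CD3E and MS4A1, were at 0 in all libraries. In RNA from bulk cultures, fewer cells with a transcript and less of it per cell cannot be told apart.

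In OE-WT cells the B-type lamins and a pair of chromatin tethers were modestly higher and both SUN genes were lower. In edgeR's quasi-likelihood test, with p-values adjusted by Benjamini-Hochberg across the genes tested, TMPO, LMNB1, BANF1 and LMNB2 rose, so 4 of 10 members were called higher where 9.44% of all genes tested were. SUN2 and SUN1 fell, so 2 of 10 were called lower where 11.6% of all genes were. In either direction 6 of 10 members were called, beside 21.1% of all genes, and the other 4, ZMPSTE24, LBR, LMNA and EMD, did not pass an adjusted p of 0.05. No member passed an unadjusted p of 0.05 with an absolute log2 fold change above 1, which 3.15% of all genes did. The median log2 fold change of the members was 0.12, against 0.01 for all genes tested. The rises depended on the scaling: with library size as the only scaling, 23.0% of all calls were higher in place of 44.8%, 0 members were called higher and the same pair of SUN genes was called lower. Without the low-count filter, and likewise in DESeq2, TMPO alone was called higher (adjusted p = 0.033 and 0.045).

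**Figure D1:**
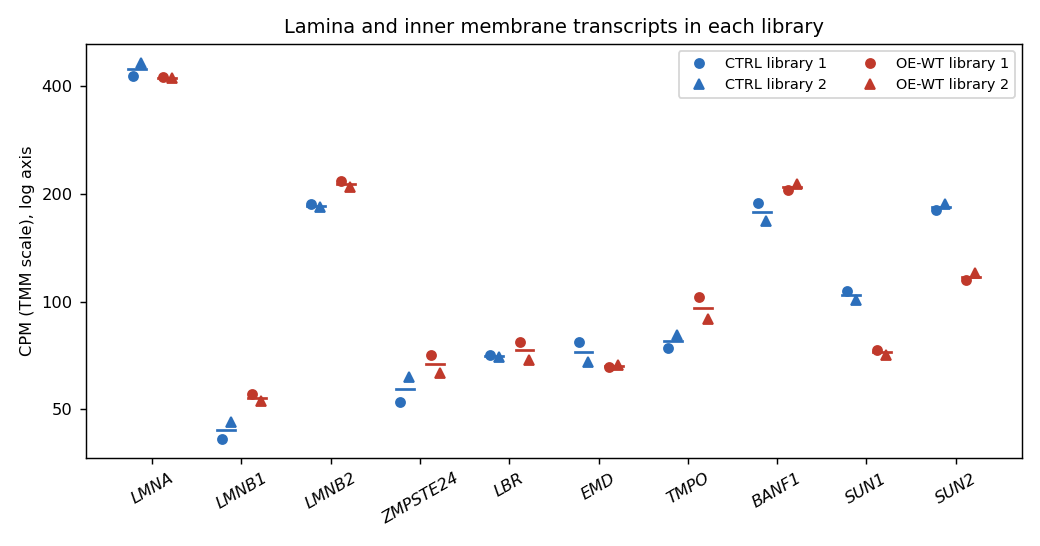
Normalised expression in CPM (TMM scale, log axis) of the 10 genes in each library, with CTRL in blue and OE-WT in red, circles for library 1, triangles for library 2 and a bar at each group mean. SUN1 and SUN2 sit lower in both OE-WT libraries, LMNB1, LMNB2, TMPO and BANF1 sit higher, and only for LBR do the groups overlap.

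Among the lamins, the change lay in the B type. LMNB1 encodes the B-type lamin whose loss marks senescence, and its mRNA was at 55.0 and 52.7 CPM in OE-WT and 41.2 and 46.2 CPM in CTRL, from 530 to 569 counts in every library. Both OE-WT libraries lay above both CTRL libraries. OE-WT was 1.23-fold higher, a log2 fold change of 0.30 (SE 0.08, 95% interval 0.13 to 0.48), with an edgeR adjusted p of 0.0123. The call was lost without OE-WT library 1 (log2 0.27, edgeR adjusted p = 0.068) and without CTRL library 1 (0.22, edgeR adjusted p = 0.16), and in a test by DESeq2 (0.30, adjusted p = 0.11). LMNB1 stayed above CTRL in all 14 alternatives, at log2 fold changes of 0.21 to 0.39.

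LMNB2, the other B-type lamin, was at 217.0 and 209.6 CPM in OE-WT and 187.9 and 183.3 CPM in CTRL. The groups did not overlap, and the log2 fold change was 0.20 (SE 0.06, 95% interval 0.07 to 0.33, edgeR adjusted p = 0.0286). This call was lost with the replicate number as a block (edgeR adjusted p = 0.093), in DESeq2 (adjusted p = 0.11) and without OE-WT library 1, CTRL library 1 or CTRL library 2 (log2 0.18, 0.22 and 0.18), and with library size as the only scaling the value was 0.11. LMNA, the source of lamins A and C and the member with the most reads, was at 424.1 and 422.1 CPM in OE-WT and 427.7 and 465.4 CPM in CTRL. Its OE-WT libraries lay just under the lower CTRL library. The log2 fold change was -0.08 (SE 0.07, edgeR adjusted p = 0.437), with a 95% interval of -0.21 to 0.06, and it turned to 0.07 once a trend with GC content was removed. LMNA, LMNB1 and LMNB2 are 3 separate genes, on chromosome 1 at 156082573-156140081, chromosome 5 at 126776623-126837020 and chromosome 19 at 2427638-2456959 (GRCh38).

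The lamins share a feature that ties them to the processing enzymes: prelamin A and the B-type lamins end in a CaaX box, a cysteine that is farnesylated and the residues after it. The last 8 codons of each coding sequence are shown here to place that signal, with the CaaX codons in capitals (reference GRCh38 with GENCODE release 44, coding strand). They lie at 1:156139080-156139103 in exon 12 of 12 for LMNA, at 5:126836238-126836261 in exon 11 of 11 for LMNB1 and at 19:2430914-2430937 in exon 12 of 12 for LMNB2, which is on the minus strand.
LMNA: agcccccagaacTGCAGCATCATG
LMNB1: tccaatagaagcTGTGCAATTATG
LMNB2: acctcaagaggcTGCTACGTGATG
In all 3 the first capital codon is a cysteine codon and the last before the stop codon is ATG. None of the other 7 members carried a cysteine codon at that position.

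The enzymes that act on this tail had 1 call among 5, close to the 21.1% of all genes called in either direction. ZMPSTE24, the metalloprotease that cuts the farnesylated end off prelamin A, was at 70.9 and 63.2 CPM in OE-WT and 52.5 and 61.5 CPM in CTRL. Both OE-WT libraries were the higher, with the lower of them close to CTRL library 2. Its log2 fold change of 0.23 (SE 0.09, 95% interval 0.06 to 0.41) missed the threshold with an edgeR adjusted p of 0.0561, and it passed without OE-WT library 2 (0.31, edgeR adjusted p = 0.019) or CTRL library 2 (0.35, edgeR adjusted p = 0.0039). RCE1, the endoprotease that removes the last residues of a CaaX box, was the only call of the list and fell, from 56.0 and 51.4 CPM in CTRL to 37.98 and 40.0 CPM in OE-WT (log2 -0.46, SE 0.08, edgeR adjusted p = 0.000417). The farnesyltransferase subunit genes FNTA and FNTB and the carboxyl methyltransferase gene ICMT had log2 fold changes of -0.16, 0.11 and 0.12 and were not called. The list's median was 0.11.

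Of the membrane and chromatin tethers, TMPO and BANF1 rose and LBR and EMD did not pass. TMPO encodes the LAP2 proteins, which bind lamins and BANF1, and was at 102.9 and 89.3 CPM in OE-WT against 74.2 and 80.5 CPM in CTRL. The groups did not overlap, though the OE-WT libraries lay further from each other than the nearest pair between the groups. TMPO was 1.24-fold higher in OE-WT, with a log2 fold change of 0.31 (SE 0.08, 95% interval 0.15 to 0.47, edgeR adjusted p = 0.00611). The call was lost without OE-WT library 1 (0.21, edgeR adjusted p = 0.11) and without CTRL library 1 (0.25), and when a GC trend was removed (0.20, edgeR adjusted p = 0.051). TMPO-AS1, a noncoding gene on the opposite strand that overlaps 646 exon bases of TMPO, also rose (log2 0.49, SE 0.14, edgeR adjusted p = 0.0141). It stood at 18.4 and 17.3 CPM in OE-WT and 11.3 and 14.1 CPM in CTRL, and since the strand setting of the counting is not stated, reads of the overlap cannot be assigned to either gene here.

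BANF1, a small DNA-binding protein that links LEM-domain proteins to chromatin, was at 204.9 and 213.7 CPM in OE-WT and 188.3 and 168.0 CPM in CTRL. Again both OE-WT libraries lay above both CTRL libraries, at a log2 fold change of 0.23 (SE 0.07, 95% interval 0.09 to 0.38, edgeR adjusted p = 0.0192). Without OE-WT library 2 (0.19) or CTRL library 2 (0.15, edgeR adjusted p = 0.22) the call was lost, as it was in DESeq2 (adjusted p = 0.085). Of the 5 processed pseudogenes of BANF1, only BANF1P3 held reads, 10 to 15 counts a library against 2034 to 2422 for BANF1. The pseudogenes TMPOP1 and TMPOP2 held no more than 5.

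LBR, the lamin B receptor, which is both a chromatin tether and a sterol reductase, was at 77.3 and 68.7 CPM in OE-WT and 70.9 and 70.1 CPM in CTRL. Its OE-WT libraries lay on either side of CTRL, the only overlap among the 10 members. Of all genes tested, 60.2% did not overlap between the groups. The log2 fold change of LBR was 0.05 (SE 0.08, 95% interval -0.11 to 0.21, edgeR adjusted p = 0.694), and its sign turned with library size as the only scaling (-0.04), without a GC trend (-0.07) and without OE-WT library 1 (-0.04). EMD, which encodes the LEM protein emerin, was at 65.8 and 66.5 CPM in OE-WT and 76.9 and 67.9 CPM in CTRL. The gap between the groups rested on CTRL library 1, and the log2 fold change of -0.13 (SE 0.08, 95% interval -0.29 to 0.03) had an edgeR adjusted p of 0.249.

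Both SUN genes fell, and these were the firmest differences among the members. SUN2 was at 114.6 and 119.9 CPM in OE-WT and 180.0 and 187.0 CPM in CTRL. The gap between the groups was several times the spread within either group. The log2 fold change was -0.65 (SE 0.07, 95% interval -0.78 to -0.51, edgeR adjusted p = 5.5e-07), 1.56-fold lower in OE-WT, and 6.21% of all genes tested had a lower value. SUN1 was at 73.3 and 70.9 CPM in OE-WT and 107.3 and 101.0 CPM in CTRL. Again no library of a group came near the other group. Its log2 fold change was -0.53 (SE 0.07, 95% interval -0.68 to -0.38, edgeR adjusted p = 1.5e-05), 1.45-fold lower, with 8.75% of all genes below it. In all 14 alternatives both stayed called, SUN1 between -0.62 and -0.49 and SUN2 between -0.74 and -0.49.

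Genes that overlap the SUN genes were checked, since reads could be shared. GET4 overlaps 1842 exon bases of SUN1 on the same strand and held 27 to 60 counts, with a log2 fold change of -0.40 (SE 0.25, edgeR adjusted p = 0.282). GTPBP1 overlaps 1135 exon bases of SUN2 on the opposite strand and was at 65.3 and 70.4 CPM in OE-WT and 72.0 and 70.9 CPM in CTRL (log2 -0.07, edgeR adjusted p = 0.514). The noncoding genes ENSG00000230149 and ENSG00000244491, also antisense to SUN2, fell by 1.02 and 0.67 on the log2 scale (edgeR adjusted p = 0.00182 and 0.00972) from no more than 135 counts a library, and whether these are reads of SUN2 was not tested.

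**Figure D2:**
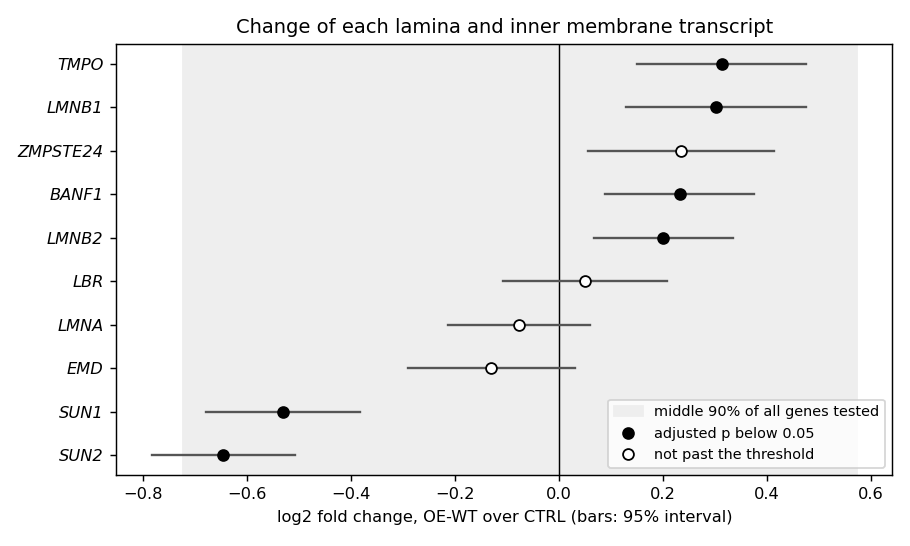
Log2 fold change of each gene, OE-WT over CTRL, with 95% intervals from edgeR's quasi-likelihood fit, filled where the adjusted p was below 0.05. The grey band spans the middle 90% of all genes tested, from -0.72 to 0.57, and every member lies inside it, from SUN2 at -0.65 to TMPO at 0.31.

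The sequences before the start of the member with the largest rise and the member with the largest fall are shown to set their promoters side by side. They are the 250 bases upstream of the RefSeq start (GRCh38.p14), at 12:98515323-98515572 on the plus strand for TMPO and at 22:38755999-38756248 on the minus strand for SUN2. Capitals mark CCAAT, and TTTGAA, the letters of the cell cycle homology region (CHR) of cell cycle promoters, here as TTCAAA on the other strand.
TMPO: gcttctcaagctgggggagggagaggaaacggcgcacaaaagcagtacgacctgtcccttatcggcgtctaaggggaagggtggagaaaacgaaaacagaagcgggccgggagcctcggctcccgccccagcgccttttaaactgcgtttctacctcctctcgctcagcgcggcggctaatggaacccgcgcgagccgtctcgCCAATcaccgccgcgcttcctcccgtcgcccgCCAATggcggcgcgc
SUN2: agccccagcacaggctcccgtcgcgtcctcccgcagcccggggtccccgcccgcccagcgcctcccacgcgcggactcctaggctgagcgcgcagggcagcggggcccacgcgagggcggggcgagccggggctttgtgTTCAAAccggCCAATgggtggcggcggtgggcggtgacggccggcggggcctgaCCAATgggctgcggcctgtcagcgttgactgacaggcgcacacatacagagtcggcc
Each held 2 copies of CCAAT, so the gene that rose and the gene that fell share these letters. Of the 9 members matched in the RefSeq promoter table, all but SUN1, 4 held CCAAT (LMNA, EMD, TMPO and SUN2), as 33.0% of all 27305 promoters did. CCAAT was in 35.05% of the 10175 promoters of tested genes. The letters GGCGG were in 7 of 9 members, 55.5% of all promoters and 83.8% of those of tested genes. TTTGAA was in 2 of 9, LMNB2 and SUN2, and in 13.6% and 8.14%. The E2F letters TTTCCCGC, TTTGGCGC, TTTCGCGC or TTTGCCGC were in 1 of 9, LMNA, and in 2.79% and 4.48%. All were searched on both strands, where GGCGG can share bases with the E2F letters and the end bases of CCAAT and TTTGAA can coincide. The searches were chosen after the values were seen, and a match describes the letters only.

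Beyond SUN1 and SUN2, 19 other inner membrane and LINC complex genes were listed. Of these 18 were tested, 7 fell, 1 rose and 10 were not called, beside 11.6% lower and 9.44% higher among all genes, and the list's median log2 fold change was -0.20, against 0.01 for all genes. LEMD2, a LEM protein that helps reseal the envelope after mitosis, went from 72.0 and 69.3 CPM in CTRL to 50.2 and 51.3 CPM in OE-WT (log2 -0.48, SE 0.08, edgeR adjusted p = 9.9e-05). On the log2 scale LEMD3, the LEM protein MAN1, fell by 0.42 (SE 0.10), TOR1B, an AAA ATPase of the envelope lumen, by 0.34 (SE 0.08), and TM7SF2, a sterol reductase related to LBR, by 0.25 (SE 0.08). ANKLE2, TOR1A and TMEM43 also fell, and TOR1AIP2, a torsin activator, rose by a log2 value of 0.25 (SE 0.08, edgeR adjusted p = 0.0252). These last 4 are named after their values were seen. The nesprin genes SYNE1 to SYNE4, whose products bind SUN proteins from the cytoplasmic side, were all under 10 CPM and were not called. The count of 7 became 2 in DESeq2, 4 with the replicate block, 3 without OE-WT library 1 and 3 without CTRL library 1. The 1 rise was lost with library size only, without the low-count filter, with a GC trend removed, in DESeq2 and without OE-WT library 1 or CTRL library 1.

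Compared per length, as reads per kilobase of all exons at the common library size (RPKM), BANF1 was the highest of the members and SUN1 the lowest. In CTRL the mean levels ran from BANF1 at 119 RPKM through LMNA at 54.8, EMD at 36.3, LMNB2 at 34.4, SUN2 at 22.0, ZMPSTE24 at 14.2, LBR at 12.3, LMNB1 at 12.0 and TMPO at 9.11 to SUN1 at 8.79. EMD and LMNB2, LBR and LMNB1, and TMPO and SUN1 overlapped in their CTRL libraries and are not separated by them. In OE-WT, SUN2 stood at 14.0 RPKM, in the 7th place and under ZMPSTE24 at 16.7 and LMNB1 at 14.8. The order depends on the length used: per base of the longest transcript, LMNB1 was the 10th in CTRL and SUN1 the 6th.

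The makeup of the lamins followed from these levels. LMNA made up 53.2 and 55.0% of the lamin reads per length in CTRL and 48.5 and 49.3% in OE-WT. LMNB1 made up 11.5 and 12.2% in CTRL and 14.1 and 13.8% in OE-WT. LMNB2 made up 35.3 and 32.7% in CTRL and 37.4 and 36.9% in OE-WT. The LMNA share was lower, and both B-type shares higher, in each OE-WT library than in either CTRL library, and with 2 libraries against 2 the smallest p an exact two-sided permutation test allows is 0.33. Per base of the longest transcript the LMNB1 share was 6.95 and 7.32% in CTRL and 8.80 and 8.56% in OE-WT, lower throughout but in the same order. By that length LMNA made up 69.3 and 70.9% in CTRL and 65.2 and 65.9% in OE-WT. LMNB2 made up 23.8 and 21.8% in CTRL and 26.0 and 25.5% in OE-WT. The size of each share thus depends on the length used, while the direction between the groups was the same.

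Ratios within a library do not depend on the scaling. The SUN2 to LMNB1 ratio of CPM was 4.37 and 4.05 in CTRL and 2.08 and 2.28 in OE-WT. The SUN1 to SUN2 ratio was 0.596 and 0.540 in CTRL and 0.640 and 0.591 in OE-WT, so the groups overlapped and no separate change of either SUN gene was seen at this spread. LMNB1 to LMNA was 0.0963 and 0.0993 in CTRL and 0.130 and 0.125 in OE-WT, while LMNB1 to LMNB2 was 0.219 and 0.252 in CTRL and 0.253 and 0.251 in OE-WT. LMNB1 over PCNA, the sliding clamp of DNA replication, was 0.153 and 0.177 in CTRL and 0.162 and 0.160 in OE-WT, with both OE-WT values inside the CTRL range. LMNB1 over MCM2, a subunit of the replicative helicase, was 0.3331 and 0.363 in CTRL and 0.322 and 0.302 in OE-WT, with both OE-WT values below the CTRL range. These ratios were chosen after the values were seen and are given without a test.

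Of 32 nucleoporin genes, 7 rose, 1 fell and 24 were not called, beside 9.44% higher and 11.6% lower among all genes, with a median log2 fold change of 0.20. On the log2 scale NUP58, of the central channel, rose by 0.48 (SE 0.09), NUP153, a basket nucleoporin that binds lamins, by 0.35 (SE 0.10) and NUP93, of the inner ring scaffold, by 0.34 (SE 0.08). NUP210, an integral membrane nucleoporin, was the only one to fall, from 673.2 and 621.4 CPM in CTRL to 454.5 and 464.5 CPM in OE-WT (log2 -0.49, SE 0.07, edgeR adjusted p = 1.5e-05). The count of 7 became 2 with library size only, where 2 fell, and 2 in DESeq2, 4 without the low-count filter, 4 with a GC trend removed and the replicate block, 3 without OE-WT library 1, 3 without CTRL library 1 and 10 without CTRL library 2.

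Of 24 genes that rebuild the envelope after mitosis, 3 rose and 2 fell, a share close to the 21.1% of all genes called in either direction, with a median of 0.05. CNEP1R1, a partner of the lipin phosphatase CTDNEP1, fell by a log2 value of 0.53 (SE 0.17), and ANKLE2, which lets BANF1 be dephosphorylated, fell by 0.25 (SE 0.07). The ESCRT-III genes CHMP3 and CHMP4B rose on the log2 scale by 0.30 (SE 0.09) and 0.21 (SE 0.07), as did CTDNEP1, named after its value was seen, by 0.20 (SE 0.07). None of the 3 rises was called with library size only, without the low-count filter, in DESeq2 or without OE-WT library 1, and the list's count of rises was 1 with the replicate block and without OE-WT library 2 or CTRL library 2. Neither fall was called in DESeq2 or without OE-WT library 1, and the count of falls was 1 without any other single library. VRK1 and VRK2, kinases that release BANF1 from chromatin, had log2 fold changes of 0.27 and 0.24 with SEs of 0.20 and 0.16.

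Among 20 genes of heterochromatin at the nuclear periphery, 4 rose and 1 fell, with a median of 0.10. Of all genes tested, 9.44% were called higher and 11.6% lower, 21.1% in either direction. CBX5, the heterochromatin protein HP1 alpha that binds LBR, showed the largest change, from 48.3 and 55.1 CPM in CTRL to 108.5 and 88.4 CPM in OE-WT (log2 0.93, SE 0.09, edgeR adjusted p = 2.8e-07). On the log2 scale EHMT2, a histone H3 lysine methyltransferase, rose by 0.44 (SE 0.08), and the other HP1 genes CBX1 and CBX3 by 0.31 (SE 0.10) and 0.30 (SE 0.08), CBX3 being named after its value was seen. HDAC3, a histone deacetylase tied to the lamina, was not called (log2 -0.16, SE 0.08). The count of 4 became 2 with library size only, in DESeq2, without OE-WT library 1 and without CTRL library 1, and with library size only 3 of the list fell. The sterol synthesis genes around the reductase activity of LBR had 2 of 12 called, both lower, beside 11.6% lower among all genes. SQLE fell by a log2 value of 0.28 (SE 0.08) and TM7SF2 as above, and the list's median was 0.03. Neither was called in DESeq2 or without OE-WT library 1, and the list's count of falls was 1 with the replicate block and without CTRL library 1.

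**Figure D3:**
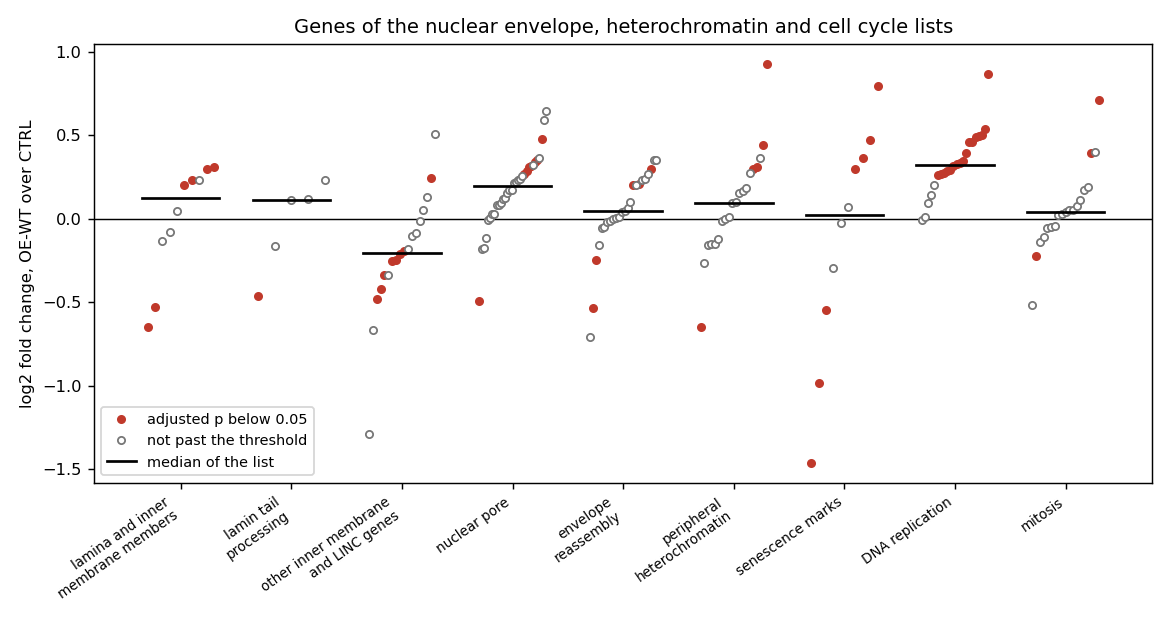
Log2 fold change, OE-WT over CTRL, of every tested gene in each list, red where the edgeR adjusted p was below 0.05, with a bar at the list median. Among the 9 lists drawn, the DNA replication list has the highest median, 0.32, and the list of other inner membrane and LINC genes the lowest, -0.20.

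LMNB1 is read as a senescence mark beside others, and these did not move as a group. Of 12 marks listed, 10 were tested, 4 were higher and 3 lower, beside 9.44% higher and 11.6% lower among all genes. The median log2 fold change of the marks was 0.02. MKI67, which is lost when cells stop cycling, rose from 17.3 and 18.4 CPM in CTRL to 32.4 and 29.6 CPM in OE-WT (log2 0.80, SE 0.11, edgeR adjusted p = 1.6e-05). HMGB1, a chromatin protein that senescent cells release, rose by a log2 value of 0.37 (SE 0.06, edgeR adjusted p = 0.000297), and HMGB2 had 0.07 (SE 0.06) and was not called. The chemokine gene CXCL8, part of the secretory phenotype, rose by a log2 value of 0.47 (SE 0.08). GLB1, the source of the senescence-associated galactosidase activity, fell on the log2 scale by 0.54 (SE 0.07). CDKN1A, which encodes p21, was at 60.5 and 69.6 CPM in OE-WT and 72.1 and 60.2 CPM in CTRL and was not called (-0.03, SE 0.09). CDKN2A, which encodes p16, fell by a log2 value of 1.46 (SE 0.49, edgeR adjusted p = 0.0357) from no more than 1.63 CPM in any library. The paper reports more p21 and p16 protein, and more cells stained for the senescence-associated galactosidase, in OE-WT than in CTRL. Those are measures of protein and enzyme activity, and the mRNA levels here do not stand in for them.

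The genes of DNA replication rose beside LMNB1. Of 22 listed, 17 rose and 0 fell by edgeR's test, beside 9.44% higher and 11.6% lower among all genes. By DESeq2, 14 rose and 0 fell. The list's median was 0.32, close to the log2 fold change of LMNB1 itself. On the log2 scale POLA1, the polymerase that works with primase, rose by 0.87 (SE 0.21), the helicase genes MCM6 and MCM3 by 0.54 (SE 0.09) and 0.50 (SE 0.07), and RRM2, of ribonucleotide reductase, by 0.50 (SE 0.07). With library size as the only scaling 11 of the 22 rose. Among 20 mitotic genes, 19 were tested, 2 rose and 1 fell, beside 9.44% higher and 11.6% lower among all genes, with a median of 0.04. CENPF and TOP2A rose by log2 values of 0.71 and 0.39 and CCNB2 fell by 0.22. The fall of CCNB2 was not called without the low-count filter, with the replicate block, in DESeq2, or without OE-WT library 1 or CTRL library 2. The part of these cell cycle genes in the values of LMNB1, LMNB2 and TMPO was not tested.

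The tRNAs that the study found with more m1A included those that read the glutamate codon GAG and the aspartate codon GAC. The others, for alanine and leucine, were not followed here. GAG and GAC were counted in the reference coding sequences of the members. The paper reports no simple linear relation, across transcripts, of the frequency of these codons to the change in translation efficiency. GAG and GAC together made up 16.9% of the codons of LMNB2, more than in 99.6% of the 11616 coding genes tested. They made up 13.3% in LMNA, 11.2% in BANF1, 10.6% in LMNB1 and 9.07% in SUN2. At the other end stood LBR at 3.09%, with 7.66% of coding genes below it, and ZMPSTE24, SUN1, TMPO and EMD had 5.26, 5.48, 5.51 and 7.48%. The median of all coding genes tested was 6.43%, and 6 of the 10 members were at or above it. LMNB1 and LMNB2 had nearly equal shares of acidic codons, 18.8 and 18.5%, but GAG made up 59.5% of the glutamate codons in LMNB1 and 95.3% in LMNB2. The 30-codon stretches with the most GAG and GAC codons in LMNB2, LMNB1 and LBR were chosen after the values were seen and are printed to show where these codons cluster, with GAG and GAC in capitals (reference GRCh38 with GENCODE release 44, coding strand, codons numbered from the start codon). For LMNB2 they are codons 216 to 245, at 19:2435121-2438201 across exons 4 and 5 on the minus strand. For LMNB1 they are codons 66 to 95, at 5:126777704-126777793 in exon 1. For LBR they are codons 114 to 143, at 1:225419736-225422103 across exons 3 and 4 on the minus strand.
LMNB2: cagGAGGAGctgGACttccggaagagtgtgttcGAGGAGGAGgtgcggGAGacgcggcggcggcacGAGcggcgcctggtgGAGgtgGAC
LMNB1: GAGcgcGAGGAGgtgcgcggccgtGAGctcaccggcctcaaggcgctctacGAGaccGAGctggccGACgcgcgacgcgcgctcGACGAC
LBR: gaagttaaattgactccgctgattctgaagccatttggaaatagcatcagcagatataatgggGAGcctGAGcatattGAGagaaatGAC
They hold 10, 9 and 4 such codons. The mRNA levels carry no measure of how these codons were read, and ribosome profiling was not analysed here.

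**Figure D4:**
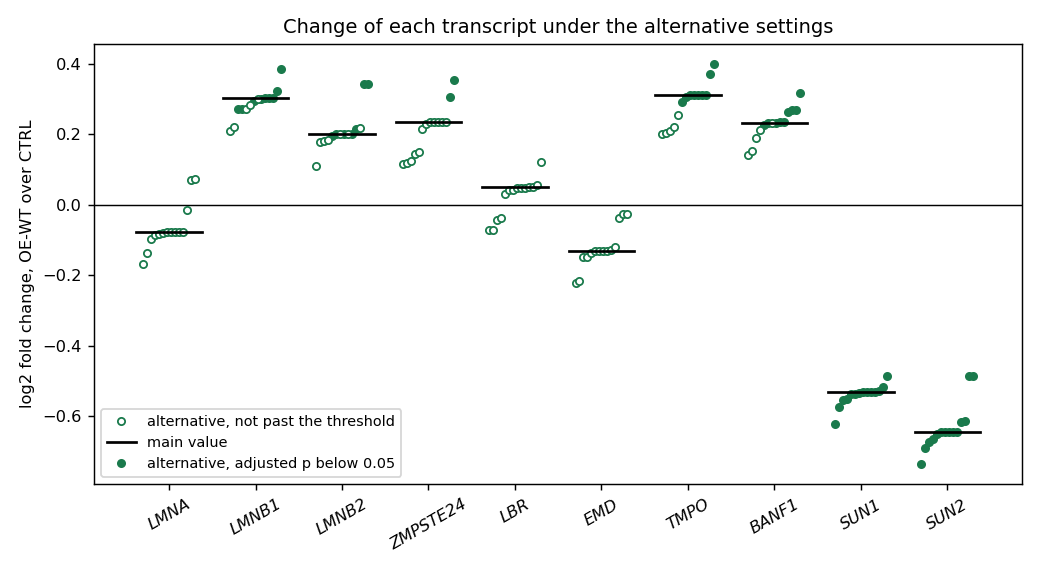
Log2 fold change of each gene under 14 alternative settings, 10 of them other scalings, filters, tests or terms and 4 with a library left out, filled where the adjusted p was below 0.05, with a bar at the reported value. SUN1 and SUN2 stay called in all 14, LMNB1, TMPO and BANF1 in 9, LMNB2 in 7, ZMPSTE24 in 2, and LBR and LMNA take both signs.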

How the data were processed

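RNA sequencing of OE-WT and CTRL DLD1 cells gave 1 count column per library, 2 libraries per group. The authors deposited raw counts per gene, without normalization. The submitters' processing notes name HISAT2 2.2.1, featureCounts 2.0.0 and DESeq2 1.34.0 and the build GRCh38, whereas the paper's methods name Cutadapt, HISAT2, HTSeq and edgeR. The labels describe selection of poly(A) RNA, a stranded kit and 2 lanes per library, while by the paper's methods ribosomal RNA was depleted and 3 replicates made per group. The annotation release and strand setting of the counting are not given in the sources used here. The lanes are summed in the table and were not analysed apart.

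Symbols, exons and coding sequences came from GENCODE release 44, which matched 57532 of 58302 identifiers. Genes were filtered by group at a minimum count of 10, normalized by TMM and tested with edgeR 4.0.16 (quasi-likelihood, R 4.3.3) with no block for the replicate number, and p-values were adjusted by Benjamini-Hochberg over 14133 genes. Alternatives tried were library size only, RLE size factors, edgeR's exact test, DESeq2 1.42.0, 2 other filters, a replicate block, removal of a GC trend (lowess, span 0.3) with and without the block, each library left out in turn, where the lone library is assumed to vary like the other group, and members summed with their pseudogenes. The steps were tested on simulated data with known changes. The comparison of OE-WT with CTRL recovered 45.2% of simulated log2 changes of 0.5, 84.4% of those of 1 and 96.8% of those of 2. Of its calls, 7.5% were genes left unchanged. The rises called among the members, 0.20 to 0.31, lay below the smallest size simulated. A count of 0 allows 3 counts, for counting error only.

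The genes named were all members, TRMT6 and TRMT61A, up to 4 genes from each list with the largest absolute log2 fold change among those with an adjusted p below 0.05 and a mean of at least 50 counts, a few senescence marks, and overlapping genes or pseudogenes with reads. Others, among them HDAC3, VRK1, VRK2, SYNE1 to SYNE4, FNTA, FNTB and ICMT, were named after their values were seen. The members and lists were chosen with earlier results of these data known. Same-numbered libraries deviated from their group means with a correlation of -0.0681, so the numbers were not taken as pairs. Protein identity between paralogs was not computed, since no protein table was used here. Some genes that the rule would name, and a sequence, are not reported here.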

Additional observations from a re-analysis of the deposited data

How the results depend on the processing

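The fall of SUN1 and SUN2 kept its direction and its call in every alternative, so 2 members were lower throughout. The number of members called higher, 4 of 10, was 0 with library size only, 1 without the low-count filter and 1 in DESeq2, and 1 to 4 with a library left out. It was 1 without OE-WT library 1 and 1 without CTRL library 1. With the replicate block 3 members were called higher, LMNB2 being lost (0.20, adjusted p = 0.093), and 2658 genes were called in all. The block changed no other member's call, and since the libraries share only a number, this loss is not read as a weaker effect. Among the 10 members, signs turned for 2, neither of them called: LMNA at 0.071 with a GC trend removed and 0.073 with the replicate block added to it, and LBR at -0.043 with library size only, -0.072 and -0.073 in the same pair of GC fits, and -0.037 to 0.12 with a library left out, the lowest without OE-WT library 1. Genes at an adjusted p below 0.05 numbered 2976, 1377 in DESeq2, of which 1376 were also called in the reported fit, and 1923 to 2721 with a library left out, the lowest without CTRL library 1. Genes past an unadjusted p of 0.05 with an absolute log2 fold change above 1 numbered 445, 738 without the low-count filter, 216 with at least 10 counts in every library, and 288 in DESeq2. The cause of these shifts was not tested. With 2 libraries per group the log2 standard errors of the members were 0.06 to 0.09, and the 95% intervals of LBR, LMNA and EMD include 0.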
